A study of Rattus norvegicus with 29 samples.

Results

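The miR-200 family is a set of 5 microRNA (miRNA) genes, miR-200a, miR-200b, miR-429, miR-200c and miR-141, known for their high expression in epithelial cells. Its members were taken by name from the deposited count table. A miRNA belonged to the family when its name, less the rat prefix rno-, had exactly 1 of these 5 stems, whichever arm of the hairpin it came from. This gave 9 of the 754 miRNAs in the table. They were 5 main forms, namely miR-200a-3p, miR-200b-3p, miR-200c-3p, miR-141-3p and miR-429 (listed without an arm), and the 5p arms of miR-200a, miR-200b, miR-200c and miR-141. The counts came from small RNA sequencing of tail-vein plasma of 29 adult male Sprague-Dawley rats, drawn 48 h after surgery at the University of Eastern Finland (UEF, 12 rats), Monash University (Monash, 8 rats) or the University of California at Los Angeles (UCLA, 9 rats). Of these rats, 19 had a traumatic brain injury (TBI) by lateral fluid percussion, a pressure pulse delivered to the exposed dura, and 10 sham-operated rats had the surgery without the pulse. Injured rats were divided by video-EEG in the seventh month into 9 that had developed epilepsy (TBI+) and 10 that had not (TBI-), so that this label is far later than the plasma. UEF contributed 4 sham, 4 TBI- and 4 TBI+ rats, Monash 3 sham, 3 TBI- and 2 TBI+ rats, and UCLA 3 of each. Rat vendors, housing and drugs given around surgery also differed between the sites and cannot be told apart from site.

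In epithelial cells these miRNAs repress ZEB1 and ZEB2, transcription factors that drive the epithelial-mesenchymal transition and that in turn repress the miR-200 genes. Plasma miRNAs travel in vesicles and protein complexes released by blood cells and by tissues across the body. In bulk plasma, fewer source cells and less RNA per cell cannot be told apart, and no measurement here gives the tissue the family's RNA came from.

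The mature sequences are shown because a miRNA finds its targets mainly through its seed, bases 2 to 8, so that members with unlike seeds have unlike targets. Names matched RefSeq entries of the GRCr8 assembly for 6 of the 9 members, printed 5′ to 3′ with the seed in capitals. Members named only are rno-miR-200a-3p, rno-miR-200b-3p and rno-miR-429. The prefix rno- is left off in most of the text.
rno-miR-200c-3p: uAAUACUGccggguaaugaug
rno-miR-141-3p: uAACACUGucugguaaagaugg
rno-miR-200a-5p: cAUCUUACcggacagugcugg
rno-miR-200b-5p: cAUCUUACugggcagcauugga
rno-miR-200c-5p: cGUCUUACccagcaguguuug
rno-miR-141-5p: uCCAUCUUccagugcaguguug
Positions of base differences are counted from 1 at the 5′ end, with the base of the miRNA named first given first. miR-200c-3p and miR-141-3p differed at 4 of 21 positions, of which U4C lay in the seed and C9U, G11U and U17A lay outside it. As background, miR-200b, miR-200c and miR-429 carry the same seed in mammals, and miR-200a and miR-141 carry the other. Among the 5p arms, miR-200a-5p and miR-200b-5p shared their seed and differed at 5 of 21 positions outside it. miR-200c-5p differed from miR-200a-5p in the seed by A2G alone. Compared from the 5′ end without a shift, miR-141-5p differed from miR-200a-5p at 18 of 21 positions, 6 of them in the seed. Both hold the bases CAUCUU, which start later in miR-141-5p, so this count overstates how unlike these arms are. In GRCr8 the genes Mir200b, Mir200a and Mir429 neighbour one another on chromosome 5, and Mir200c and Mir141 do so on chromosome 4. miR-200b-3p and miR-200c-3p are known to differ by few bases, and how the counting treated reads close to both was not stated, so the split between close members carries that uncertainty.

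Total miRNA counts per rat ranged from 1162307 to 5223469 with a median of 2713557. Levels are given as CPM, counts scaled to a common library size, with the TMM method, which sets each library's scale from the bulk of its miRNAs instead of from its total. UEF sham rat 3 stood apart from the other libraries. It had the highest total, 5223469 counts, the lowest TMM factor, 0.333, and 55.1% of its counts in the liver miRNA miR-122. Results of the family and counts of calls that moved without it are therefore also given without it in most comparisons. Each of the 9 family members had at least 10 counts in 29 of 29 rats, so the 9 were among the 751 miRNAs that passed the filter on low counts. The family held between 1403 counts (Monash sham rat 3) and 17770 counts (UEF TBI- rat 2) per rat. As a share of a rat's miRNA counts, it ranged from 0.111% (UCLA TBI+ rat 3) through a median of 0.185% to 0.434% (Monash TBI- rat 2). The family as a whole was thus counted in every library, as a small part of the plasma miRNAs. Its 5p arms had far fewer counts, down to 17 for miR-200a-5p in Monash sham rat 3.

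rno-miR-429 had the highest mean level over the 29 rats, 539.6 ± 287 CPM (SD, n = 29), and ranked 87 of 751 miRNAs. rno-miR-200c-3p averaged 464 ± 335 CPM (rank 93), rno-miR-200a-3p 447 ± 308 CPM (rank 95) and rno-miR-200b-3p 400.0 ± 252 CPM (rank 99). rno-miR-141-3p averaged 185 ± 82.7 CPM and ranked 151. On the log2 CPM scale miR-429 exceeded miR-200c-3p by a mean of 0.33 ± 0.62 (SD) and did so in 22 of 29 rats. miR-200c-3p exceeded miR-200a-3p by 0.04 ± 0.79, in 16 of 29 rats, and miR-200a-3p exceeded miR-200b-3p by 0.11 ± 0.37, in 19 of 29 rats. miR-429 stood further above miR-200a-3p, by 0.36 ± 0.32, and above miR-200b-3p, by 0.47 ± 0.35, each in 26 of 29 rats. The step down to miR-141-3p was clear, with miR-200b-3p higher by 1.04 ± 0.45 log2 in 29 of 29 rats. The order of the 9 members by mean percent of counts was the same as by mean log2 CPM. Counts of different miRNAs also carry the unequal efficiency with which library preparation copies each sequence, so these orders are orders of counts.

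The 5p arms, the strands usually discarded, were present at lower levels. miR-141-5p averaged 50.2 ± 22.6 CPM, miR-200b-5p 38.7 ± 12.0 CPM, miR-200c-5p 32.5 ± 11.8 CPM and miR-200a-5p 20.97 ± 6.72 CPM. In each of the 4 hairpins with both arms in the table, the 3p arm had more counts than the 5p arm in 29 of 29 rats. The median ratio of 3p to 5p counts was 19.8 for miR-200a (lowest 3.91, highest 77.7), 9.72 for miR-200b (4.53 to 21.8) and 3.51 for miR-141 (1.75 to 7.35). For miR-200c it was 10.0, with the widest range of the 4 hairpins, from 2.42 in UEF sham rat 4 to 83.7 in UEF TBI- rat 4. The balance of arms therefore moved most from rat to rat for miR-200c.

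**Figure D1:**
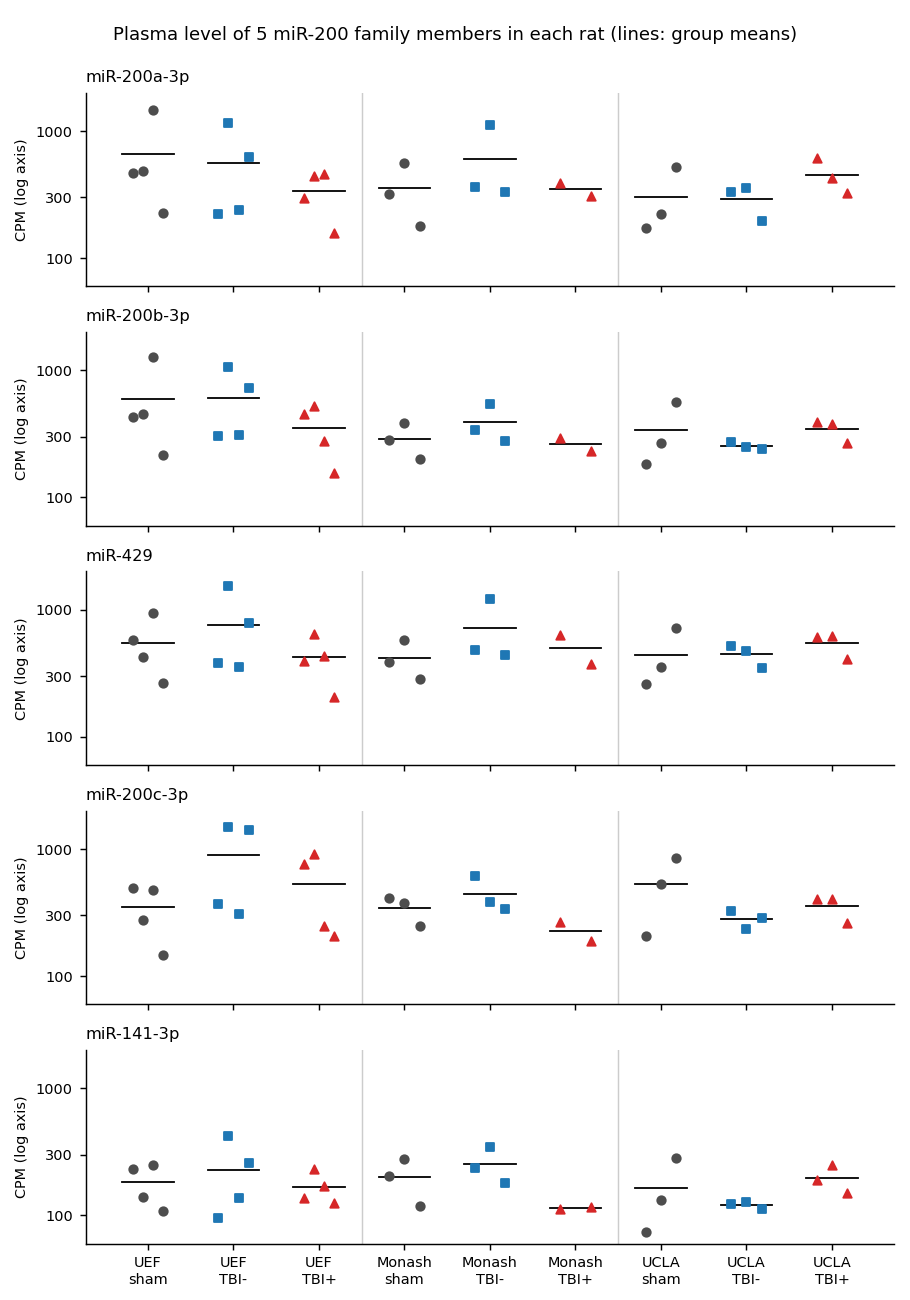
Level of each of the 5 main forms in each of the 29 rats (CPM, log axis), by site and outcome, with 1 point per rat and a line at each group's mean. Values of the groups overlap, and UEF TBI- rat 2 (miR-429 at 1525 CPM and miR-200c-3p at 1502 CPM), UEF sham rat 3 (miR-200a-3p at 1462 CPM) and UEF TBI- rat 4 (miR-200c-3p at 1422 CPM) reach highest.

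The same few rats were high for several members. UEF TBI- rat 2 had the highest level of miR-429 (1525 CPM), miR-200c-3p (1502 CPM), miR-141-3p (425 CPM), miR-200b-5p (63.2 CPM) and miR-141-5p (129 CPM). UEF sham rat 3 had the highest miR-200a-3p (1462 CPM) and miR-200b-3p (1277 CPM), but its miR-200c-3p, at 477 CPM, was close to that of UEF sham rat 1, at 495 CPM. At the low end, UEF TBI+ rat 4 had the lowest miR-200a-3p (157 CPM), miR-200b-3p (157 CPM) and miR-429 (207 CPM). That rat also had the highest miR-200a-5p of the 29, 40.2 CPM, so its arms of miR-200a stood at opposite ends. The SD of log2 CPM over the rats was between 0.61 and 0.83 for the 5 main forms, with a median of 0.70, and had a median of 0.49 for the 5p arms. The median over the 751 miRNAs tested was 0.63.

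The chromosome 5 members, miR-200a-3p, miR-200b-3p and miR-429, together made up 67.9 ± 7.40% (SD, n = 29) of the summed CPM of the 5 main forms. This share ran from 56.0% in UEF TBI+ rat 1 to 83.5% in UEF sham rat 3. The members known to share the miR-200b seed, miR-200b-3p, miR-200c-3p and miR-429, held 69.1 ± 5.29% of the counts of the 5 main forms, from 59.3% in Monash TBI- rat 2 to 78.8% in UEF TBI+ rat 1. The summed level of the 5 main forms ranged from 853 to 5668 CPM.

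The first question was whether the members go up and down together from rat to rat. For the 5 main forms they did. Over 29 rats Pearson's r of log2 CPM between the 10 pairs of main forms ranged from 0.533 to 0.928 with a median of 0.794, and Spearman's rho ranged from 0.555 to 0.923 with a median of 0.799. All 10 had adjusted p under the threshold of 0.05 for r and for rho, in two-sided permutation tests with 100000 resamples, adjusted by Benjamini-Hochberg over the 36 pairs of the 9 members. For comparison, the median r over the 167331 pairs formed by 579 non-members, those counted 10 times or more in each rat, was -0.0179, with quartiles at -0.230 and 0.219.

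Over the 29 rats, pairs of neighbouring genes on chromosome 5 had the closest values. In the UCLA rats alone a pair across the chromosomes, miR-200b-3p and miR-141-3p, had the highest r, 0.955. miR-200a-3p and miR-429 had r = 0.928 (rho = 0.923, permutation p = 1e-05 for each, the smallest these resamples can give, adjusted p = 5.14e-05 for each). Without the 2 rats farthest from the median of miR-200a-3p, UEF sham rat 3 and UEF TBI- rat 2, r was 0.924, and within UEF, Monash and UCLA it was 0.919, 0.963 and 0.942. The corresponding r was 0.887 for miR-200a-3p and miR-200b-3p (rho = 0.841, r = 0.812 without those 2 rats and 0.931, 0.967 and 0.846 within the 3 sites) and 0.870 for miR-200b-3p and miR-429 (rho = 0.835, r = 0.834 without those 2 rats and 0.937, 0.932 and 0.904 within the 3 sites), with the same permutation p. These 3 miRNAs lie side by side in the genome and differ in seed by the known grouping. The chromosome 4 pair, miR-200c-3p and miR-141-3p, had r = 0.706 (permutation p = 4e-05, adjusted 0.00016) and rho = 0.725 (permutation p = 2e-05, adjusted 9e-05), and r = 0.620 without UEF TBI- rats 2 and 4. Within the 3 sites in that order its r was 0.773, 0.749 and 0.760. The 6 pairs across the chromosomes had r from 0.533 to 0.825, so some were as close as the chromosome 4 pair. The lowest r of the 10 was that of miR-200a-3p with miR-200c-3p, with r = 0.533 (permutation p = 0.00314, adjusted 0.00665), rho = 0.555 (permutation p = 0.00214, adjusted 0.00642) and r = 0.453 without UEF sham rat 3 and UEF TBI- rat 2 (within sites 0.592, 0.345 and 0.501).

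The relation of the main forms held within sites and on other scales. Over the 10 pairs the UEF rats gave a median r of 0.828 (n = 12, range 0.592 to 0.937), the Monash rats 0.761 (n = 8, 0.307 to 0.967) and the UCLA rats 0.845 (n = 9, 0.501 to 0.955). The median r over the 29 rats was 0.811 after the means of site and outcome were removed, 0.833 once UEF sham rat 3 was left out, 0.811 on the relative log expression (RLE) scale and 0.729 on the scale of shares of all counts.

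**Figure D2:**
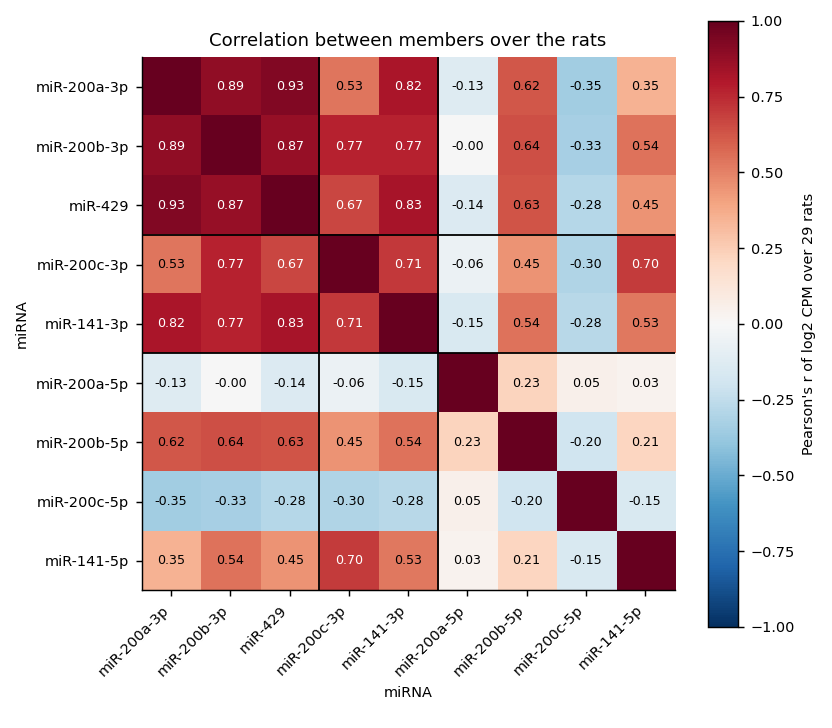
Pearson's r of log2 CPM over 29 rats for each pair of the 9 members, with lines between the chromosome 5 main forms, the chromosome 4 main forms and the 5p arms. The 10 pairs of main forms lie between 0.533 and 0.928, and the 6 pairs of 5p arms between -0.198 and 0.226.

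The 5p arms did not follow one another on the CPM scale. The 6 pairs of 5p arms had r from -0.198 to 0.226 (median 0.0424) and rho from -0.249 to 0.231, and 0 of the 6 passed the adjusted threshold for either. On the scale of shares the same 6 pairs had r from 0.425 to 0.622 (median 0.484), so whether 5p arms vary together depends on the scaling. Against the main form of their own hairpin the 5p arms differed. miR-200b-5p followed miR-200b-3p with r = 0.644 (permutation p = 0.00016, adjusted 0.000524) and rho = 0.566 (permutation p = 0.00172, adjusted 0.00563), and r was 0.523 without UEF sham rat 3 and UEF TBI- rat 2. miR-141-5p followed miR-141-3p with r = 0.531 (permutation p = 0.00302, adjusted 0.00665) and rho = 0.442 (permutation p = 0.0171, adjusted 0.0362), and r was 0.382 without UEF TBI- rat 2 and Monash TBI- rat 2. For these pairs r within UEF, Monash and UCLA was 0.786, 0.385 and 0.388 (miR-200b) and 0.600, 0.525 and 0.546 (miR-141).
The other hairpins gave values near or below 0. miR-200a-5p against miR-200a-3p had r = -0.132 (permutation p = 0.495, adjusted 0.557) and rho = -0.156 (permutation p = 0.415), and r was -0.414 without UEF sham rat 3 and UEF TBI- rat 2. miR-200c-5p against miR-200c-3p had r = -0.298 (permutation p = 0.116, adjusted 0.182) and rho = -0.237 (permutation p = 0.213), and r was -0.157 without UEF TBI- rats 2 and 4. Within UEF, Monash and UCLA these r were -0.152, 0.0442 and -0.556 (miR-200a) and -0.564, -0.0192 and 0.246 (miR-200c). Among the 16 pairs of a main form with the 5p arm of another hairpin, 7 passed the adjusted threshold for r and 5 for rho. The highest was miR-200c-3p with miR-141-5p, both from chromosome 4, with r = 0.702 (permutation p = 4e-05, adjusted 0.00016) and rho = 0.561 (permutation p = 0.00162, adjusted 0.00563). Its r was 0.535 without UEF TBI- rats 2 and 4, and 0.738, 0.252 and 0.868 within UEF, Monash and UCLA.

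The family's level also moved with the total miRNA counts of the libraries on the TMM and RLE scales. The mean log2 CPM of the 5 main forms correlated with log2 total miRNA counts over 29 rats at r = 0.683 (permutation p = 5e-05, adjusted 0.0002 over the 4 measures compared) and rho = 0.671 (permutation p = 0.00012, adjusted 0.00048). Without Monash sham rat 3 and Monash TBI+ rat 1, the rats farthest from the median total, r was 0.690, and without UEF sham rat 3 it was 0.639. Within the sites taken alone, UEF gave r = 0.906, Monash 0.671 and UCLA 0.321. On the RLE scale r was 0.671, but on the scale of shares of all counts r was 0.172 and rho 0.0764, so the relation was not seen on that scale. The TMM factor, the fourth measure, divides this level, so a negative r between the 2 is built in and is not given as a relation. On the share scale, which holds no such factor, r with the log2 factor was 0.158 and rho 0.200. The level on the TMM scale had r = 0.129 with the log2 ratio of miR-451-5p to miR-23a-3p, a measure of red cell lysis (permutation p = 0.504, adjusted 0.504), rho = 0.0517 (permutation p = 0.791) and r = -0.0750 without UEF TBI- rat 2 and UCLA TBI- rat 1 (within sites 0.201, 0.491 and -0.200). It had r = 0.170 with log2 CPM of miR-122-5p, the main liver miRNA (permutation p = 0.379, adjusted 0.504), rho = 0.201 (permutation p = 0.292) and r = 0.00412 without UEF sham rats 2 and 3 (within sites 0.149, -0.684 and 0.193). The part of total miRNA counts in the results that follow was not tested.

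**Figure D3:**
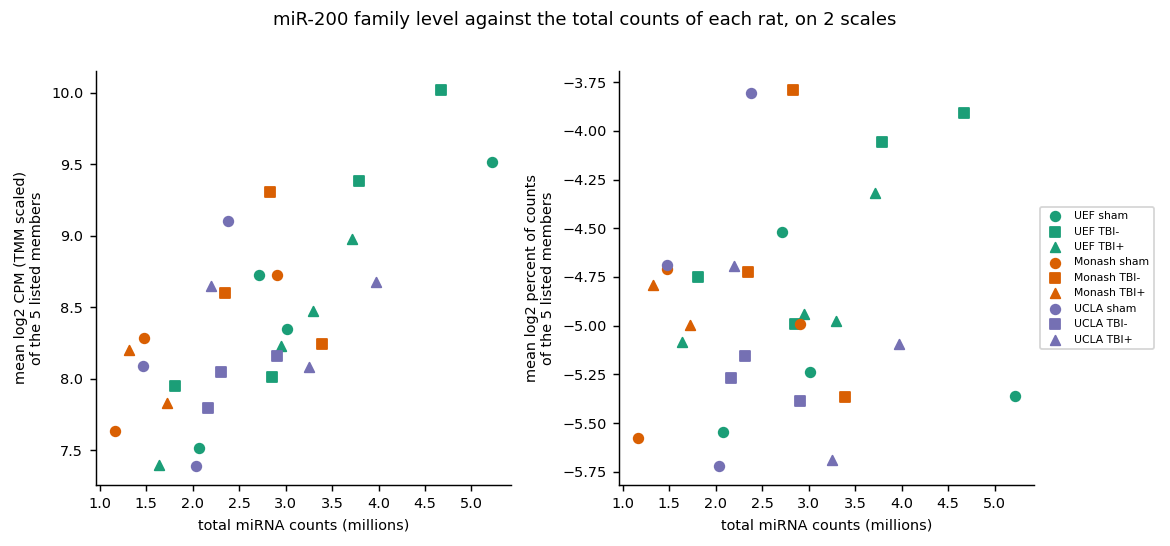
Level of the 5 main forms in each rat against its total miRNA counts, as mean log2 CPM with TMM scaling (left) and as mean log2 percent of counts (right), with 1 point per rat, colour for site and shape for outcome. Pearson's r is 0.683 on the left and 0.172 on the right.

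The comparison of TBI with sham rats asked whether brain injury is followed by a change of the family in plasma at 48 h. The ranges of the 2 groups overlapped for each member. In edgeR's quasi-likelihood test 0 of the 9 members passed an adjusted p of 0.05, where 9 of 751 miRNAs (1.2%) passed, 5 of them higher and 4 lower in TBI rats (5 higher and 0 lower without UEF sham rat 3), and 83 of the 751 and 0 of the 9 had an unadjusted p under 0.05. DESeq2 called 0 of the 9 as well, and 25 miRNAs in all, 10 higher and 15 lower. miR-200a-3p had a lowest, median and highest level of 173, 391 and 1462 CPM in the 10 sham rats and of 157, 358 and 1146 CPM in the 19 TBI rats. miR-200b-3p had 185, 335 and 1277 CPM in sham rats and 157 (UEF TBI+ rat 4), 304 and 1069 CPM in TBI rats. UEF sham rat 3 gave both sham maxima, and UEF TBI- rat 2 both TBI maxima. miR-429 had 262, 404 and 935 CPM in sham rats and 207, 476 and 1525 CPM in TBI rats. miR-200c-3p had 145 (UEF sham rat 4), 395 and 843 CPM in sham rats and 190 (Monash TBI+ rat 2), 340.4 and 1502 CPM in TBI rats. miR-141-3p had 74.3, 173 and 284 CPM in sham rats and 95.7, 151 and 425 CPM in TBI rats. The ranges overlapped, with the TBI maxima of miR-429, miR-200c-3p and miR-141-3p above the sham maxima and those of miR-200a-3p and miR-200b-3p below them, and with the medians of miR-429 higher and those of the other main forms lower in TBI than in sham rats.
The fitted log2 fold changes lay near 0. miR-429 had the highest, 0.24 (SE 0.26, 95% interval -0.30 to 0.77, adjusted p = 0.828, n = 19 and 10), and miR-200b-3p the lowest, -0.14 (SE 0.26, 95% interval -0.68 to 0.40, adjusted p = 0.922). The 95% intervals of the 9 members all lay between -0.69 and 0.78 log2. These intervals leave room for moderate changes in either direction. Of the 9 fold changes 5 were above 0 with TMM, 4 with RLE, 6 with total counts alone, 4 in DESeq2 and 7 without UEF sham rat 3, so the family had no common direction. Leaving out that rat moved miR-200a-3p from -0.03 to 0.29, miR-200b-3p from -0.14 to 0.11 and miR-429 from 0.24 to 0.37. Without UEF TBI- rat 2, miR-429 came to 0.14.

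**Figure D4:**
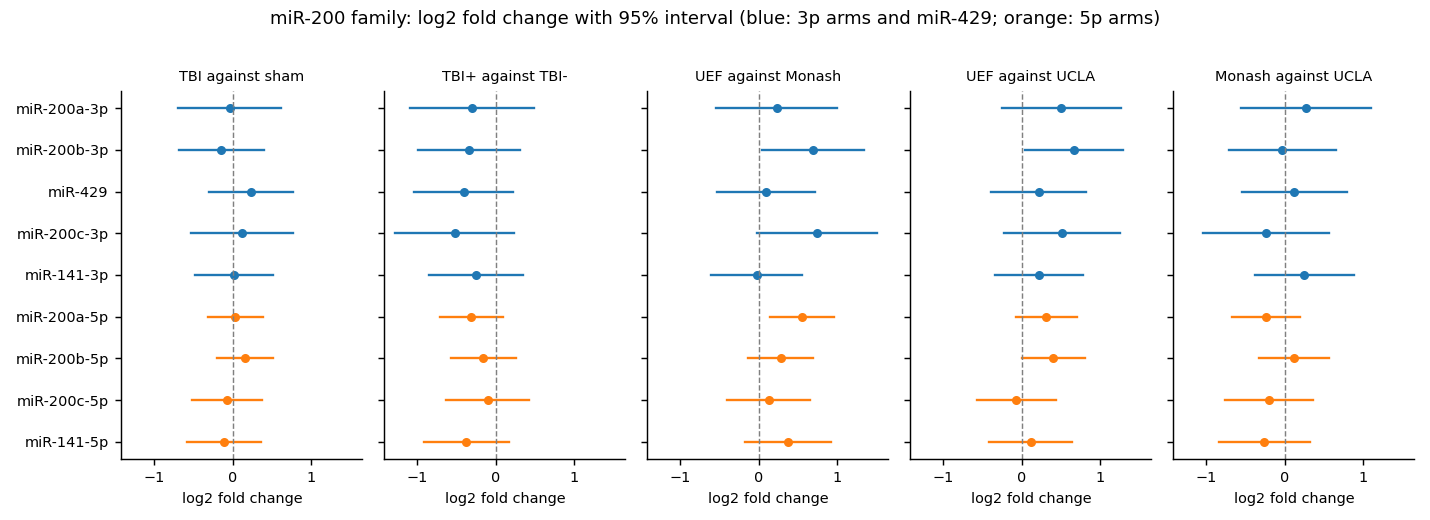
Fitted log2 fold change of each member (point) with its 95% interval (line) for injury (TBI against sham), later epilepsy (TBI+ against TBI-) and each pair of sites, with main forms in blue and 5p arms in orange. The 9 points for TBI+ against TBI- lie between -0.52 and -0.10, and no member passed the adjusted threshold in any of the 5 comparisons.

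The comparison of TBI+ with TBI- rats asked whether plasma at 48 h differs between injured rats that later did and did not develop epilepsy. The 9 members had fitted levels lower in TBI+ rats, by small amounts that did not pass the test. edgeR called 0 of the 9, where 0 of 751 miRNAs (0.0%) passed, with 18 of the 751 and 0 of the 9 at an unadjusted p under 0.05, and DESeq2 called 0 in all. miR-200c-3p had a lowest, median and highest level of 233, 353 and 1502 CPM in the 10 TBI- rats and of 190, 267 and 912 CPM in the 9 TBI+ rats. miR-429 had 346, 478 and 1525 CPM in TBI- rats and 207, 435 and 648 CPM in TBI+ rats. UEF TBI- rats 2 and 4 and Monash TBI- rat 2 were high within the TBI- group, and the other TBI- rats lay within the range of the TBI+ rats for miR-429. miR-200b-3p had 242, 307 and 1069 CPM in TBI- rats and 157, 296 and 523 CPM in TBI+ rats. miR-200a-3p had 195, 345 and 1146 CPM against 157, 388 and 609.8 CPM, and here the TBI+ median was the higher. miR-141-3p had 95.7, 159 and 425 CPM in TBI- rats and 112, 151 and 250.0 CPM in TBI+ rats. The groups overlapped for each of the 5 main forms, and their highest TBI- values exceeded the highest TBI+ value each time.
The log2 fold change was -0.52 for miR-200c-3p (SE 0.37, 95% interval -1.28 to 0.24, adjusted p = 0.998, n = 9 and 10), -0.41 for miR-429 (SE 0.31, 95% interval -1.04 to 0.23, adjusted p = 0.998) and -0.37 for miR-141-5p (SE 0.27, 95% interval -0.92 to 0.17, adjusted p = 0.998). The other 6 lay between -0.34 and -0.10. The median of the 9 was -0.31, where the median of the 751 miRNAs was -0.00 and 50.2% of them were below 0. The 9 fold changes were also below 0 with RLE, with total counts alone, in DESeq2, without UEF sham rat 3 and with each other rat left out in turn. Their sizes moved when single rats were left out. Without UEF TBI- rat 4 miR-200c-3p came to -0.31, without UEF TBI- rat 2 miR-429 came to -0.19, miR-141-5p to -0.17, miR-200b-3p to -0.18 and miR-141-3p to -0.05, and without Monash TBI- rat 2 miR-200a-3p came to -0.06 and miR-200b-5p to -0.08. miR-200c-5p came to -0.01 without UEF TBI- rat 1. Leaving out a whole site moved them further, and 3 of the 9 changed sign. miR-141-3p came to 0.02 without the Monash rats, miR-200a-5p to 0.04 without the UCLA rats and miR-200c-5p to 0.02 without the UEF rats. Without the UEF rats most of the main forms also came close to 0, with miR-200a-3p at -0.01, miR-200b-3p at -0.02 and miR-429 at -0.08, and so did miR-141-5p at -0.01, while miR-200c-3p came to -0.30 and miR-200a-5p to -0.51. Without the UCLA rats miR-200c-3p came to -0.75, miR-200a-3p to -0.74, miR-429 to -0.70, miR-200b-3p to -0.66 and miR-141-3p to -0.64. Since the main forms vary together from rat to rat, and miR-200b-5p and miR-141-5p follow their own main forms, the 9 signs are not separate observations. No test of the sign was made.

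The comparison of sites asked whether the 3 laboratories drew plasma with like miRNA profiles from rats given the same kind of injury or sham surgery. Sites differed for many miRNAs. Of the 9 family members most had their highest fitted level at UEF, fewer so on the scale of total counts alone, but the differences did not pass the test. In the joint test of the 3 sites edgeR called 0 of the 9 members, where 14.8% of the 751 miRNAs passed, with 223 of the 751 and 2 of the 9 at an unadjusted p under 0.05, the latter miR-200a-5p (adjusted p = 0.117) and miR-200b-3p (adjusted p = 0.142). DESeq2 called 0 of the 9 and 157 miRNAs in all, with the same 2 members and 254 of the 751 at an unadjusted p under 0.05. Members under it numbered 1 with RLE, 0 with total counts alone and 0 without UEF sham rat 3.
miR-200b-3p had a lowest, median and highest level of 157 (UEF TBI+ rat 4), 442 and 1277 CPM at UEF, 201 (Monash sham rat 3), 289 and 548 CPM at Monash and 185 (UCLA sham rat 1), 267 and 566 CPM at UCLA. miR-200c-3p had 145, 422 and 1502 CPM at UEF, 190 (Monash TBI+ rat 2), 359.5 and 615 CPM at Monash and 209, 326 and 843 CPM at UCLA. Both were spread widest at UEF, which held their lowest and their highest rats. miR-200a-5p had 16.1, 24.1 and 40.2 CPM at UEF, 11.4, 15.4 and 24.5 CPM at Monash and 13.6, 18.1 and 32.3 CPM at UCLA. miR-429 had medians of 428 CPM at UEF, 459 CPM at Monash and 476 CPM at UCLA, and miR-141-3p of 156, 193 and 133 CPM. The site ranges overlapped for each of the 9 members in each pair of sites.
UEF against Monash gave 0 of 9 members called in edgeR where 9.99% of miRNAs passed (33 higher and 42 lower at UEF, but 9 and 24 with total counts alone and 21 and 34 without UEF sham rat 3), with 204 of the 751 and 2 of the 9 at an unadjusted p under 0.05 (1 of the 9 with RLE, 0 with total counts alone and 1 without UEF sham rat 3), and DESeq2 called 0 of 9, with 212 miRNAs and 3 of the 9 under it. The log2 fold change was 0.56 for miR-200a-5p (SE 0.20, 95% interval 0.14 to 0.97, adjusted p = 0.0705), 0.70 for miR-200b-3p (SE 0.32, 95% interval 0.05 to 1.34, adjusted p = 0.153) and 0.75 for miR-200c-3p (SE 0.38, 95% interval -0.02 to 1.52, adjusted p = 0.196). UEF against UCLA gave 0 of 9 in edgeR where 9.32% passed (39 higher and 31 lower at UEF, but 35 and 42 with total counts alone and 37 and 34 without UEF sham rat 3), with 151 of the 751 and 2 of the 9 at an unadjusted p under 0.05 (0 of the 9 with RLE, with total counts alone or without UEF sham rat 3), and 0 of 9 in DESeq2, with 168 miRNAs and 1 of the 9 under it. There miR-200b-3p had 0.67 (SE 0.31, 95% interval 0.04 to 1.3, adjusted p = 0.200) and miR-200b-5p 0.41 (SE 0.20, 95% interval 0.00 to 0.81, adjusted p = 0.248), so both arms of miR-200b leaned the same way. Monash against UCLA gave 0 of 9 in edgeR where 5.46% passed, with 148 of the 751 and 0 of the 9 at an unadjusted p under 0.05, and 0 of 9 in DESeq2, which called 59 in all, with 170 miRNAs and 0 of the 9 under it, and its fold changes ran from -0.26 to 0.28.
Of the 9 members 8 were above 0 for UEF against Monash with TMM, RLE or DESeq2, but 6 with total counts alone and 6 without UEF sham rat 3. For UEF against UCLA 8 were above 0 with TMM, RLE or DESeq2, 7 with total counts alone and 9 without UEF sham rat 3. The median of the 751 miRNAs was 0.06 and 0.07 in these comparisons, and without UEF sham rat 3 miR-200b-3p came to 0.44 against Monash and 0.44 against UCLA. Among the TBI rats alone miR-200c-3p was 1.02 log2 higher at UEF than at Monash and 1.08 higher than at UCLA, whereas among the sham rats alone it gave -0.02 and -0.62.

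That contrast is the question of the next comparison, whether the difference between TBI and sham rats itself depended on the site. For miR-200c-3p and miR-141-5p, the fitted level of injured rats lay above that of sham rats at UEF and below it at UCLA, without passing the test. Of the other products of the same chromosome 4 genes, miR-141-3p had log2 fold changes of 0.12 at UEF (-0.06 without UEF sham rat 4 and -0.09 with the ratio of miR-451-5p to miR-23a-3p in the model) and -0.04 at UCLA (0.63 without UCLA sham rat 3). miR-200c-5p had -0.44 at UEF and -0.10 at UCLA (0.29 without UCLA sham rat 2 and 0.25 with that ratio in the model). In the test of the difference between sites edgeR called 0 of the 9 members, where 1.07% of the 751 miRNAs passed, with 105 of the 751 and 1 of the 9 at an unadjusted p under 0.05, and DESeq2 called 0 of the 9 and 17 in all, with 2 of the 9 and 130 miRNAs under it. Without UEF sham rat 3 edgeR called 0 miRNAs, with 83 of them and 2 members under it. miR-141-5p had an adjusted p of 0.287 and miR-200c-3p of 0.370.
At UEF, sham rats 1 to 4 had 495, 275, 477 and 145 CPM of miR-200c-3p, and the 8 TBI rats had a lowest of 207, a median of 564 and a highest of 1502 CPM. At Monash, sham rats 1 to 3 had 411, 379 and 249 CPM, TBI- rats 1 to 3 had 615, 383 and 340.4 CPM and TBI+ rats 1 and 2 had 267 and 190 CPM. At UCLA, sham rats 1 to 3 had 209, 529.8 and 843 CPM, and the 6 TBI rats had a lowest of 233, a median of 306 and a highest of 403 CPM. UEF TBI- rats 2 and 4 and UEF TBI+ rats 1 and 2 lay above each UEF sham rat, and UCLA sham rats 2 and 3 lay above each UCLA TBI rat, while the lowest rats of both groups overlapped at each site.
miR-141-5p gave a like picture at lower counts. UEF sham rats 1 to 4 had 36.8, 50.0, 48.2 and 21.4 CPM of it, and the 8 UEF TBI rats had a lowest of 35.4, a median of 50.8 and a highest of 129 CPM. Monash sham rats 1 to 3 had 65.7, 44.8 and 47.2 CPM, TBI- rats 1 to 3 had 32.3, 59.8 and 34.0 CPM and TBI+ rats 1 and 2 had 30.7 and 31.0 CPM. UCLA sham rats 1 to 3 had 32.8, 69.9 and 93.2 CPM, and the 6 UCLA TBI rats had a lowest of 21.97, a median of 42.3 and a highest of 56.1 CPM. UEF TBI- rats 2 and 4 were again high, and so were UCLA sham rats 2 and 3, with overlap at each site.

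At UEF the log2 fold change of TBI against sham was 1.04 for miR-200c-3p (SE 0.48, 95% interval 0.05 to 2.03, adjusted p = 0.292) and 0.69 for miR-141-5p (SE 0.33, 95% interval 0.01 to 1.37, adjusted p = 0.309). edgeR called 0 of the 9 members there, where 3.86% of the 751 miRNAs passed (10 higher and 19 lower in TBI rats, but 6 and 19 with RLE, 40 and 8 with total counts alone and 5 and 9 without UEF sham rat 3), with 119 of the 751 and these 2 at an unadjusted p under 0.05 (0 of the 9 with RLE), and DESeq2 called 0 of 9, with 140 miRNAs and 1 of the 9 under it. The chromosome 5 members had -0.56 for miR-200a-3p (SE 0.48, 95% interval -1.55 to 0.43), -0.32 for miR-200b-3p (SE 0.42, 95% interval -1.17 to 0.54) and 0.11 for miR-429 (SE 0.42, 95% interval -0.75 to 0.97). Those values rested on UEF sham rat 3, without which they were 0.18, 0.37 and 0.48, while miR-200c-3p was 1.21 and miR-141-5p 0.83. With the ratio of miR-451-5p to miR-23a-3p in the model, the 3 chromosome 5 members had -1.13, -0.54 and -0.31. In that model miR-200c-3p was 0.97 and miR-141-5p 0.62. Without UEF TBI- rat 2, miR-429 was -0.15. At Monash miR-200c-3p had 0.05 (SE 0.55, 95% interval -1.08 to 1.18) and miR-141-5p -0.48 (SE 0.39, 95% interval -1.27 to 0.31), and edgeR called 0 of the 9, where 0.0% of miRNAs passed, with 0 of the 9 and 56 of the 751 at an unadjusted p under 0.05, and DESeq2 called 0 of the 9 and 5 in all. At UCLA miR-200c-3p had -0.73 (SE 0.52, 95% interval -1.79 to 0.34, adjusted p = 0.571) and miR-141-5p -0.63 (SE 0.37, 95% interval -1.38 to 0.12, adjusted p = 0.517), and edgeR called 0 of the 9, where 0.266% passed (1 higher and 1 lower in TBI rats, but 1 and 3 with RLE and 1 and 8 with total counts alone), with 85 of the 751 and 0 of the 9 at an unadjusted p under 0.05 (3 of the 9 with total counts alone), and DESeq2 called 0 of the 9 and 7 in all, with 99 miRNAs and 0 of the 9 under it. UCLA sham rat 3 carried much of this, since without it the values were -0.21 and -0.28. Without UCLA sham rat 1 they moved the other way, to -1.14 and -0.98.
The scaling bore directly on this comparison. With total counts alone, without TMM factors (an alternative chosen after the data were seen), miR-200c-3p and miR-141-5p passed the test of the difference between sites, with adjusted p of 0.0413 and 0.0435 and 15 of the 751 miRNAs called. That scaling moved the median fold change of the 751 miRNAs to 0.43 at UEF, 0.18 at Monash and -0.47 at UCLA. The fold changes of miR-200c-3p, 1.34 at UEF and -1.28 at UCLA, stood above and below these medians, and those of miR-141-5p were 1.14 and -1.17. With TMM, RLE or DESeq2, 4 of the 9 members were above 0 at UEF, 6 at Monash and 4 at UCLA. With total counts alone it was 8, 8 and 0 of the 9, and without UEF sham rat 3 it was 8, 6 and 4. Under the planned settings and with each rat left out in turn, 0 of the 9 passed.

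**Figure D5:**
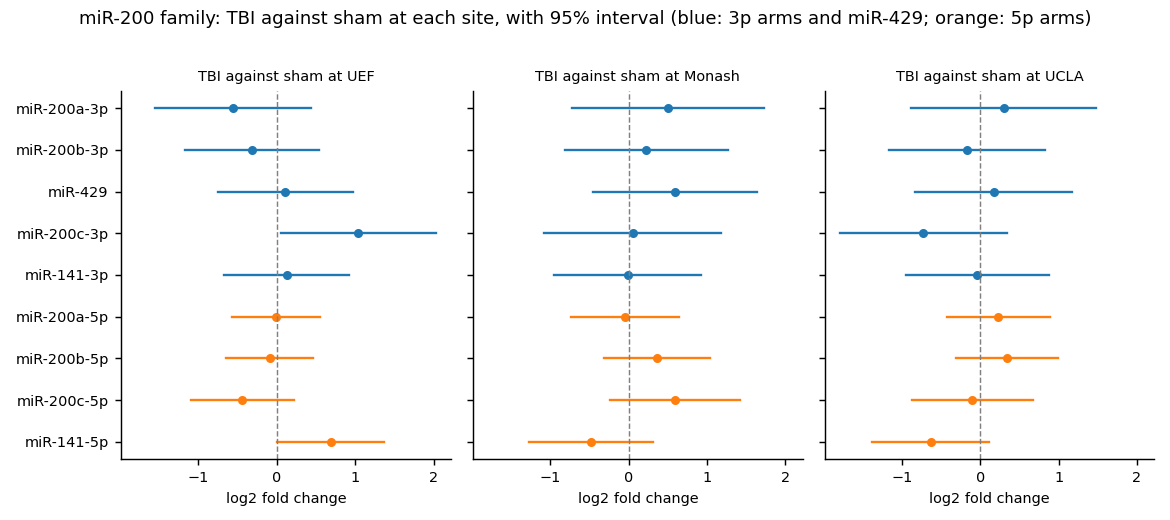
Fitted log2 fold change of TBI against sham for each member (point) with its 95% interval (line) at UEF, Monash and UCLA, with main forms in blue and 5p arms in orange, on the TMM scale. miR-200c-3p and miR-141-5p lie above 0 at UEF (1.04 and 0.69) and below it at UCLA (-0.73 and -0.63), as they also do with RLE, DESeq2 or total counts alone, and the difference between sites did not pass the test on the TMM scale.

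Within a rat, the balance of the 2 loci depends little on the scaling between libraries. The log2 CPM of miR-200c-3p less that of miR-200b-3p, which share a seed, averaged 0.14 ± 0.53 (SD, n = 29). In the 4 UEF sham rats it was 0.19, -0.73, -1.42 and -0.56, in the 4 UEF TBI- rats 0.27, 0.49, -0.01 and 0.96, and in the 4 UEF TBI+ rats 0.75, 0.80, -0.17 and 0.40. At UEF the sham rats thus lay mostly below the TBI rats, with UEF sham rat 1 inside their range. In the UCLA sham rats it was 0.18, 0.99 and 0.57, against a range of -0.11 to 0.26 in TBI- rats and of -0.03 to 0.07 in TBI+ rats of that site. In the Monash sham rats it was 0.54, -0.03 and 0.31, in the TBI- rats 0.85, -0.52 and 0.29, and in the TBI+ rats -0.14 and -0.30. This contrast was noticed in these data and was not tested.

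Lists of other epithelial miRNAs give the setting in which the family stood. Of the 751 miRNAs, 1.2% passed for TBI against sham and 0.0% for TBI+ against TBI-. In the joint test of sites 14.8% passed, and 1.07% did in the test of the difference between sites. In the list for skin and stratified epithelium 0 of 8 miRNAs passed for TBI against sham and 0 for TBI+ against TBI-, while 3 passed in the joint test of sites, miR-203a-3p (adjusted p = 0.0481), miR-203b-3p (0.0289) and miR-203b-5p (0.0293). miR-203b-5p was higher at UEF than at Monash by 1.36 log2 (SE 0.40, adjusted p = 0.0374) and miR-203b-3p higher at UEF than at UCLA by 1.01 (SE 0.27, adjusted p = 0.0152). Without UEF sham rat 3, miR-203b-3p still passed in the joint test (adjusted p = 0.0181) and against UCLA (0.79, adjusted p = 0.0135), while miR-203a-3p (0.103) and miR-203b-5p (0.0589) did not pass in the joint test, nor miR-203b-5p against Monash (1.25, adjusted p = 0.0562). In the gut and liver list 1 of 5 passed for TBI against sham, miR-194-5p, with a log2 fold change of -1.52 (SE 0.38, adjusted p = 0.0367), 0 passed for TBI+ against TBI-, and 4 passed for sites, miR-192-5p among them, 1.62 higher at UEF than at UCLA (SE 0.38, adjusted p = 0.00530). For TBI against sham and TBI+ against TBI-, 0 of 12 pancreas and pituitary miRNAs, 0 of 8 of ciliated epithelium, 0 of 5 of sensory epithelium and 0 of 15 tied to epithelial-mesenchymal transition passed in either. For sites together 2, 1, 0 and 1 of them passed in that order. Without UEF sham rat 3, miR-194-5p came to -0.94 for TBI against sham (adjusted p = 0.116), 3 of 5 gut and liver miRNAs passed for sites, and 0 of 8 ciliated ones did. The median log2 fold change for TBI+ against TBI- was -0.52 in the skin list, -0.37 in the sensory list, -0.07 in the ciliated list, 0.01 in the gut and liver list, 0.07 in the epithelial-mesenchymal transition list and 0.08 in the pancreas and pituitary list, beside -0.31 in the family. In the test of the difference between sites 1 miRNA of these lists passed, miR-194-5p (adjusted p = 0.0464), and it did not pass without UEF sham rat 3 (adjusted p = 0.339).

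Markers of other sources moved with injury at UEF, where miR-200c-3p had its highest fold change. The 2 hepatocyte miRNAs fell there, miR-122-5p with a log2 fold change of -2.92 (SE 0.51, adjusted p = 0.000279), and 4 of 5 gut and liver miRNAs fell. The red cell miRNA miR-486 rose by 1.34 (SE 0.31, adjusted p = 0.00774), 1 of the 5 of its list, and 3 of 9 neuronal miRNAs rose, miR-129-5p by 1.52 (SE 0.29, adjusted p = 0.000990). Without UEF sham rat 3, the 2 hepatocyte miRNAs (miR-122-5p at -1.96, adjusted p = 0.0349), 1 of 5 gut and liver miRNAs, miR-486 (1.25, adjusted p = 0.0392) and 1 of 9 neuronal miRNAs, miR-129-5p (1.40, adjusted p = 0.0176), still passed there. For platelets and white cells 0 of 6 passed there, for vessel wall 0 of 6 and for muscle 0 of 7, and 3.86% of the 751 miRNAs did. Of the epithelial lists, 1 of 8 skin miRNAs was lower there, miR-203b-3p at -1.12 (SE 0.32, adjusted p = 0.0436), and 1 of 15 tied to epithelial-mesenchymal transition was higher, miR-9a-5p at 0.98 (SE 0.28, adjusted p = 0.0458), and neither passed without UEF sham rat 3 (-0.44 with adjusted p = 0.769 and 0.93 with adjusted p = 0.150). miR-9a-5p stands in the neuronal list as well, so the same call is also 1 of the 3 neuronal miRNAs counted above. As a share of all counts per rat, hepatocyte miRNAs ran from 0.636% to 55.1%, red cell miRNAs from 1.58% to 24.0%, platelet and white cell miRNAs from 1.76% to 13.7%, vessel wall from 0.785% to 5.23%, muscle from 0.0319% to 4.01% and neurons from 0.114% to 1.24%. In TBI against sham over the sites, where 1.2% of the 751 miRNAs passed, 2 of 9 neuronal miRNAs rose and 1 of 2 hepatocyte miRNAs, miR-122-5p, fell. Without UEF sham rat 3 the same 2 neuronal miRNAs passed and 0 of 2 hepatocyte miRNAs did, with miR-122-5p at -1.11 (adjusted p = 0.177). In the joint test of sites 0 of 5 red cell, 3 of 6 platelet and white cell, 4 of 6 vessel wall, 2 of 2 hepatocyte, 4 of 7 muscle and 2 of 9 neuronal miRNAs passed, where 14.8% of the 751 miRNAs did. Spearman's rho of the family's mean log2 CPM with that of each marker list, over 29 rats and as a description, was highest among these sources for vessel wall (0.476) and lowest for neurons (-0.259). Among the lists of epithelial miRNAs it was 0.650 for skin, 0.533 for sensory epithelium, 0.518 for epithelial-mesenchymal transition, 0.454 for gut and liver, -0.0429 for pancreas and pituitary and -0.425 for ciliated epithelium. The part of these sources in the family's values was not tested.

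The miRNAs outside the family whose levels ran most like it were found by mean Spearman correlation of log2 CPM with the 5 main forms, over 29 rats, taken over the 579 non-members counted 10 times or more in each rat. miR-203a-3p, a miRNA of skin keratinocytes, came first with a mean rho of 0.775 (0.647 to 0.878 over the 5 members), and 0.806 after site and outcome means were removed. miR-182, of the sensory epithelium cluster, followed with 0.740 (0.824), then miR-29a-3p with 0.698 (0.641), miR-3556b with 0.676 (0.651) and miR-205, a miRNA of stratified epithelium, with 0.669 (0.688). The next 5 places were held by miR-3556a, miR-27b-3p, miR-29b-3p, miR-146b-5p and miR-203b-5p, from 0.657 to 0.643. Of these 10, 3 stand in the skin list, miR-203a-3p, miR-203b-5p and miR-205, where 7 of the 579 do. In the sensory epithelium list stands 1, miR-182, where 2 of the 579 do. The 4 ciliated epithelium miRNAs among the 579 had a median mean rho of 0.121, the 5 of gut and liver 0.211 and the 8 of pancreas and pituitary -0.168, with 0 of each in the first 10. The 13 tied to epithelial-mesenchymal transition had 0.143, with 1 in the first 10. Lists of the other sources ran from -0.192 for neurons to 0.331 for vessel wall, with 0 of each in the first 10. miR-203a-3p ranged from 166 to 9928 CPM (median 864) and miR-205 from 882 to 26179.9 CPM (median 3662) over the 29 rats, while miR-182 averaged 349 CPM and miR-203b-5p 77.7 CPM. At the other end, miR-463-3p (-0.667), miR-136-5p (-0.622) and miR-758-3p (-0.622) ran most against it. These correlations share the total counts and scaling factors of the libraries and are given as descriptions.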

How the data were processed

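Plasma small RNA of 29 rats was sequenced in 1 library per rat. Per the study's methods, the authors prepared libraries with unique molecular identifiers, trimmed reads, aligned them to the rat genome Rnor_6.0 and to miRBase, and deposited raw counts per miRNA as whole numbers without normalization. Whether identifiers were merged was not stated. The table held 754 miRNAs, of which 751 passed edgeR's filterByExpr (minimum count 10). Counts were scaled by TMM, and log2 CPM used a prior count of 2. edgeR 4.0.16 quasi-likelihood tests in R 4.3.3 used outcome and site, with TBI as the mean of TBI- and TBI+, and a model with the product of site and injury gave effects by site. p was adjusted by Benjamini-Hochberg over the 751 miRNAs with a threshold of 0.05. The biological coefficient of variation was 0.475. On simulated counts with 2-fold changes in 200 of the 751 miRNAs, the test recovered 82.5% of them for TBI against sham and 70.5% for TBI+ against TBI-, with 3.51% and 2.76% false among calls. Far more miRNAs were changed there than were called in these comparisons, and no site effect was simulated. These shares therefore do not give the recovery where few miRNAs change. DESeq2 1.42.0 served as an alternative. Correlations used 100000 permutations (Python 3.11.15, numpy 2.4.6, scipy 1.17.1). The miRNAs named were, by exact stem, the 9 members, 6 epithelial lists (skin, gut and liver, pancreas and pituitary, ciliated, sensory, epithelial-mesenchymal transition) and 6 marker lists, and, by correlation, the 10 most like and 3 least like the family. Members and lists were chosen with earlier results of these data known. Alternatives were RLE factors, other filters, miR-122-5p removed from totals, the replicate number as a block, the miR-451-5p to miR-23a-3p ratio as a covariate, sites or rats left out and, chosen after seeing the data, total counts without TMM factors. No column was left out. Counts measure plasma content relative to the other miRNAs, not amounts per volume.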

Additional observations from a re-analysis of the deposited data

Results flagged for a closer look

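Within each member, groups of rats were searched for a lowest or highest value standing far from the rest of its group for the group's size. This flagged 7 of the 72 groups looked at. Chance would flag about 1 in 20 groups if they were separate. These groups share rats and the main forms vary together, so the number of flags cannot be read against that rate. Levels are in CPM on the TMM scale.

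UEF sham rat 3 stood out as the highest of the sham rats for miR-200a-3p, at 1462 CPM with the next at 565 CPM, and for miR-200b-3p, at 1277 CPM. Monash TBI- rat 2 was the highest of the Monash rats for miR-200a-3p, at 1125 CPM, and for miR-429, at 1218 CPM with the next at 630.0 CPM. UCLA sham rat 3 was the highest of the UCLA rats for miR-200c-3p, at 843 CPM with the next at 529.8 CPM. For miR-200a-5p, UEF TBI+ rat 4 was the highest of the TBI+ rats, at 40.2 CPM with the next at 21.9 CPM, and UEF TBI- rat 4 was the lowest of the UEF TBI- rats, at 19.3 CPM with the next at 26.0 CPM. The 7 flags thus fell on 5 rats. The report gives the results without UEF sham rat 3, and for UCLA without UCLA sham rat 3.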

How the results depend on the processing

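The count of family members called changed in 1 of 390 alternatives. With total counts in place of TMM factors, chosen after the data were seen, 2 members passed the test of the TBI effect by site, where p of miR-141-5p was 0.000869 and of miR-200c-3p 0.000714. The lowest adjusted p of an uncalled member elsewhere was 0.0505, for miR-200c-3p in TBI against sham at UEF on that scale. Fold changes of uncalled members changed sign in 161 of 2801 values. The counts below are of miRNAs called among all tested.

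For TBI against sham (9 called), DESeq2 called 25, the ratio of miR-451-5p to miR-23a-3p in the model gave 4, and leaving site out of the model gave 15. Without the UEF rats 0 were called, with 30 at an unadjusted p under 0.05, without the Monash rats 21 and without the UCLA rats 14. Leaving out 1 rat gave 1 (without UEF sham rat 4) to 16 (without Monash sham rat 2).

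For sites together (111 called), sham rats alone gave 66 and TBI rats alone 40. For UEF against Monash (75), total counts alone gave 33, a mean count of at least 100 gave 36, sham rats alone 35 and TBI rats alone 0, with 103 at an unadjusted p under 0.05, and leaving out 1 rat gave 39 (without Monash TBI- rat 3) to 117 (without Monash TBI+ rat 2). For UEF against UCLA (70), sham rats alone gave 36 and TBI rats alone 40. For Monash against UCLA (41), sham rats alone gave 21, TBI rats alone 23, and leaving out 1 rat gave 25 (without Monash sham rat 3) to 59 (without UCLA TBI+ rat 1).

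For the TBI effect by site (8), DESeq2 called 17, RLE 2, total counts alone 15, a mean count of at least 100 gave 1, removing miR-122-5p from the totals 4 and the ratio in the model 0, with 102 at an unadjusted p under 0.05, and leaving out 1 rat gave 0 (without UEF sham rat 3) to 10 (without UEF TBI- rat 4). For TBI at UEF (29), DESeq2 called 49, total counts alone 48, and leaving out 1 rat gave 14 (without UEF sham rat 3) to 56 (without UEF sham rat 1). For TBI at Monash (0), DESeq2 called 5, and leaving out 1 rat gave 0 to 4 (without Monash TBI- rat 3). For TBI at UCLA (2), DESeq2 called 7, RLE 4, total counts alone 9, removing miR-122-5p 4, a mean count of at least 100 gave 0 and the ratio in the model 0, with 47 and 54 at an unadjusted p under 0.05, and leaving out 1 rat gave 1 (without UCLA sham rat 1) to 6 (without UCLA sham rat 2).

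Between rats of a site that share a replicate number, r ran from -0.422 to 0.396 over 28 pairs, with 7 over 0.1. No r between differently numbered rats was set beside it, so whether rats with the same number share more than that was not settled. With that number as a block, 5 were called for TBI against sham, 31 for UEF against Monash, 46 for UEF against UCLA and 0 for the TBI effect by site, with 84 at an unadjusted p under 0.05. No call of a family member changed with the block.

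The median r of the 6 pairs of 5p arms, 0.0424, was 0.484 on shares of all counts and -0.183 in the UCLA rats alone.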
